A study of Mus musculus with 6 samples.

Results

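The genes examined were 10 noncoding RNA genes in the deposited RNA-seq counts, namely Malat1, Neat1, Kcnq1ot1, Gas5, Snhg1, Snhg9, Snhg12, Meg3, H19 and Bc1. They were taken by their Entrez identifiers from a count table of 23725 genes, and none of the 10 was absent from it. The study asked how 3T3-L1 cells, a mouse fibroblast line that can be turned into adipocytes, respond to extracellular vesicles (EVs) of MLP29 cells, a line derived from mouse liver progenitors. The EV group of 3 libraries (numbered 1, 2 and 4) received MLP29 EVs for 24 h. The control group of 3 libraries (numbered 1, 2 and 3) received for 24 h a preparation made by the same isolation from medium that no cells had conditioned. Both groups were cells of 1 line in medium that had been cleared of vesicles by centrifugation, and each library came from a separately treated plate. Per the paper, the plates were treated with 3 different EV preparations and 3 control preparations.

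The listed RNAs do not code for a protein. Malat1 gathers in nuclear speckles, where splicing factors are stored, and Neat1 is the scaffold of the paraspeckle, another nuclear body. Kcnq1ot1, H19 and Meg3 come from imprinted loci, where only the copy from one parent is read. Gas5 and the Snhg genes (small nucleolar RNA host genes) carry small nucleolar RNAs (snoRNAs) in their introns. The snoRNAs guide the chemical modification of ribosomal RNA, and the spliced host RNA of genes such as Gas5 and Snhg1 is known to begin with a run of pyrimidines, like ribosomal protein mRNAs, and to be removed by nonsense-mediated decay. Bc1 is a short RNA polymerase III transcript of rodent neurons with an internal A-rich stretch.

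The sequences around the transcription starts of the snoRNA hosts are shown because these starts are what such genes are known to share with ribosomal protein genes. They are from the RefSeq promoter table of GRCm38.p6, with 20 bases before and 20 from the start, in the direction of the gene. Capitals mark the longest uninterrupted run of C or T that touches the 10 bases on either side of the start.
Gas5, chr1:161035146-161035185, plus strand: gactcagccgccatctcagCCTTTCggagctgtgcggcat
Snhg1, chr19:8723467-8723506, plus strand: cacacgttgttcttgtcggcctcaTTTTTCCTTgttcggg
Snhg12, chr4:132308658-132308697, plus strand: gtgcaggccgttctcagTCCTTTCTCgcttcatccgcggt
Snhg9, chr17:24719946-24719985, minus strand: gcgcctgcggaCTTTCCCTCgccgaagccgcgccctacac
A run of at least 8 such bases, read on the gene's strand only, was found for Snhg1, Snhg12 and Snhg9, which gave 3 of the 10 start windows that the table holds for 8 of the listed genes. The share over all 32851 promoters was 13.7%. The runs of Snhg12 and Gas5 crossed the annotated start, that of Snhg9 ended just before it, and that of Snhg1 began at its base 5. The run of Gas5 shown above had 6 bases, and its other listed start had 3.

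A-rich stretches bear on whether an RNA without a poly(A) tail can enter libraries made from poly(A) RNA, as these were. The sequences of Bc1 (whole) and Malat1 (bases 6644 to 6715 of the transcript) are from the transcripts of GENCODE vM21 on GRCm38, with the longest run of A in capitals.
Bc1, chr7:144914470-144914637, plus strand: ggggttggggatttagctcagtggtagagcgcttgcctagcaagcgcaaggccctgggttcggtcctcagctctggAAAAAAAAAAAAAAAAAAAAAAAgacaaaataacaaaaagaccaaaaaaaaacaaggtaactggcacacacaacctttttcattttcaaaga
Malat1, chr19:5795958-5796029, minus strand: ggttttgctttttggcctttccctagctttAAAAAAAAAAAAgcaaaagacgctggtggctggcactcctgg
The run of A had 23 bases in Bc1 and 12 in Malat1, whose mature end is known to be a triple helix in place of a poly(A) tail.

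The library totals were between 508599 and 665465 counts. The read number named in the paper's methods is far above these totals, and the reason for the gap was not tested. Genes that did not exceed 3 counts in any of the libraries are called at the floor, a level of 4.51 to 5.90 CPM (counts per 1e6 counts of a library) depending on the library. The floor in CPM uses these whole totals. Levels below are normalized CPM, a different scale. For them the library totals were those of the tested genes, adjusted with TMM factors that correct for differences in composition. Fits scaled by library totals alone used totals of the tested genes too. Intervals and floors cover counting error or the spread between the plates and their preparations only. Of 12 fibroblast markers 11 were tested and 8 were called lower in EV libraries, beside 14.4% of all tested genes, and Lum was at 0 in every library. Among markers of other cells, 6 of 7 adipocyte markers and 10 of 11 epithelial and liver markers of the donor cells were at the floor. In these bulk libraries, fewer cells of a type and less RNA per cell cannot be told apart. The deposited counts do not show the strand they were counted on. A count under a gene can hold reads of a partner on the other strand where exons overlap. LTO1, the gene next to Bc1, has 1100 exon bases overlapped on the other strand by Ccnd1. It had 2791 to 3692 counts and was number 14 of the whole table by mean count. Whether the counts hold each gene's own strand was not tested, also for genes without such a partner.

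Of the 10 genes, 5 had enough counts to be tested between the groups, 1 (Snhg12) had counts above the floor but fell below the filter, and 4 (Meg3, H19, Snhg9 and Bc1) were at the floor. No tested gene passed the threshold (edgeR quasi-likelihood test, Benjamini-Hochberg adjusted p under 0.05 over 5066 genes), whereas 22.1% of all tested genes did. At an unadjusted p under 0.05, edgeR called 0 of the 5, and the Wald test of DESeq2 called 0 as well. The direction was lower in EV libraries for Malat1, Gas5 and Snhg1 and higher for Neat1 and Kcnq1ot1. The median log2 fold change of the 5 was -0.12, beside 0.014 over all tested genes. In none of the 5 did the normalized CPM of the groups separate without overlap, which 39.4% of all tested genes did. The plot of normalized levels shows these values for each library.

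**Figure D1:**
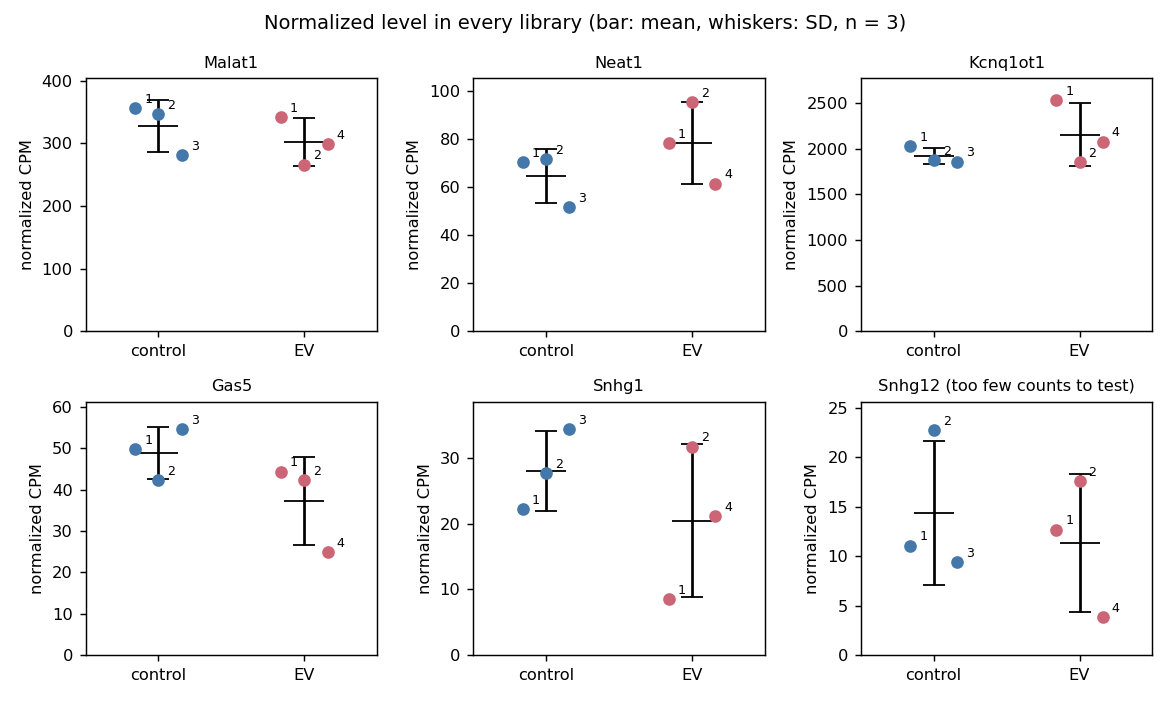
Normalized CPM (y axis, from 0) of the 6 genes above the floor in each control (blue) and EV (red) library, labelled by replicate number, with the mean as a bar and the SD as whiskers (n = 3). The groups overlap in all 6 panels, and EV library 1 stands above the others for Kcnq1ot1.

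Compared per kilobase of exon, the order of the levels differed from that of the counts. Malat1 was highest with 45.1 ± 5.45 CPM per kb (SD, n = 6 libraries), Kcnq1ot1 followed with 21.9 ± 2.79 and Gas5 with 11.5 ± 2.69. The ranges of these 3 over the 6 libraries were apart from each other, the lowest Kcnq1ot1 value being 19.9 and the highest Gas5 value 14.5 CPM per kb. Snhg1 at 8.16 ± 3.14, Snhg12 at 5.37 ± 2.75 and Neat1 at 3.43 ± 0.716 CPM per kb came last, and from Gas5 downwards each gene overlapped the next. For Snhg12 and Snhg1 this spread rests on few counts in each library. The length used is that of all annotated exons of a gene together. For Gas5 (3760 bases), Snhg1 (2969 bases) and Snhg12 (2402 bases) it takes in nearly the whole gene, because some annotated transcripts keep the introns, and a fully spliced host RNA is shorter. The order of the hosts among the other genes therefore rests on this choice of length, and a shorter one would raise their levels. For Kcnq1ot1 and Neat1 the value is an average that does not show whether reads cover all of the transcript.

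**Figure D2:**
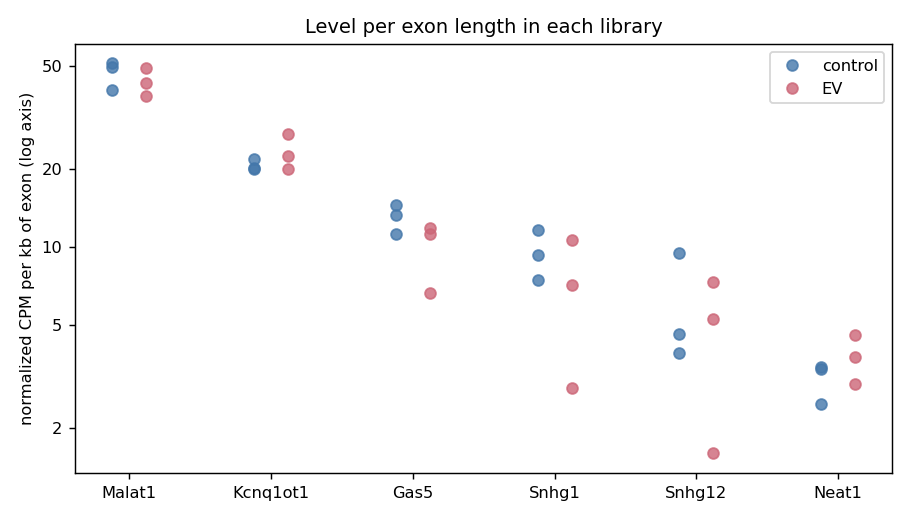
Normalized CPM per kb of annotated exon (y axis, log scale) of the 6 genes above the floor in each control and EV library. Malat1 and Kcnq1ot1 lie above the 4 other genes in all 6 libraries, and those 4 overlap from neighbour to neighbour.

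Malat1 (Entrez 72289, chr19:5795690-5802672, minus strand) was the second of the listed genes by counts. Its counts were 193, 213 and 180 in control libraries 1, 2 and 3, and 162, 151 and 156 in EV libraries 1, 2 and 4. All 3 EV counts were below all 3 control counts. After scaling, the levels were 356, 346 and 281 CPM in control and 342, 266 and 299 CPM in EV libraries, and the groups overlapped. The means were 328 ± 40.8 and 303 ± 38.3 CPM (SD, n = 3), with a log2 fold change of -0.12 (SE 0.13, edgeR quasi-likelihood adjusted p = 0.516). The 95% interval of the fold reached from 0.773 to 1.10. Between counts and CPM stand the library totals of the tested genes and the TMM factors. These factors were 1.01 to 1.07 in control and 0.941 to 0.967 in EV libraries. Scaled by library totals alone, Malat1 had a log2 fold change of -0.26 and an adjusted p of 0.151 in the edgeR quasi-likelihood test. Under that scaling the median of all genes moved from 0.014 to -0.12, and of the 1060 called genes 970 were lower and 90 higher, against 732 lower and 389 higher with TMM. An exon of Malat1 is overlapped on the other strand by Gm37376 over 453 bases.

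Neat1 (Entrez 66961, chr19:5824708-5845480, minus strand) lies 22036 bases from Malat1. Its counts were 38, 44 and 33 in control and 37, 54 and 32 in EV libraries. EV library 2 was the highest and EV library 4 the lowest, so that the EV counts spanned those of the controls. The levels were 70.2, 71.5 and 51.5 CPM in control and 78.2, 95.1 and 61.4 CPM in EV libraries, where EV libraries 1 and 2 lay above all controls and EV library 4 among them. The means were 64.4 ± 11.2 and 78.2 ± 16.9 CPM (SD, n = 3), and the log2 fold change was 0.30 (SE 0.21, edgeR quasi-likelihood adjusted p = 0.319). The interval of the log2 fold change, -0.13 to 0.72, contained both no change and a rise. No annotated exon overlaps Neat1 on the other strand. Frmd8, next to Neat1, had 4 to 10 counts and was not tested.

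The protein partners of these nuclear RNAs were counted for comparison. Of 13 paraspeckle proteins, 11 were tested, of which 2 fell, 0 rose and 9 did not pass, with a median log2 fold change of -0.19. One of them, Hnrnpk, an RNA-binding protein, fell from 122 ± 11.2 to 73.7 ± 2.58 CPM (edgeR quasi-likelihood adjusted p = 0.00335). Sfpq, a core paraspeckle protein, had 688 ± 47.2 CPM in control and 783 ± 40.7 CPM in EV libraries and did not pass (edgeR quasi-likelihood adjusted p = 0.162). Of 12 nuclear speckle proteins, all tested, 4 fell and 0 rose, with a median log2 fold change of -0.49. Srrm2, a structural protein of the speckle, fell from 181 ± 32.7 to 70.6 ± 15.7 CPM (log2 fold change -1.35, SE 0.18, edgeR quasi-likelihood adjusted p = 8.5e-08). Srsf11, a splicing factor, fell from 268 ± 26.3 to 184 ± 26.9 CPM (edgeR quasi-likelihood adjusted p = 0.00345), a call lost with no filter on low counts (adjusted p = 0.0516). Over all tested genes 14.4% were called lower and 7.68% higher. These are RNA counts under the genes of the proteins, and whether they hold each gene's own strand was not tested. The intervals of Malat1 and Neat1 are given above beside them without a test of the difference.

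Kcnq1ot1 (Entrez 63830, chr7:143213111-143296547, minus strand), the long antisense RNA of the Kcnq1 imprinted domain, had the most counts of the 10 genes and was number 69 of the whole table by mean count. Its counts were 1098, 1154 and 1192 in control and 1198, 1053 and 1084 in EV libraries. The levels were 2027, 1876 and 1862 CPM in control, and 2532, 1855 and 2079 CPM in EV libraries. EV library 1 was the highest of all and EV library 2 the lowest, so that the EV range contained the controls. The means were 1922 ± 91.5 and 2155 ± 345 CPM (SD, n = 3), and the log2 fold change of 0.16 (SE 0.091) did not pass (edgeR quasi-likelihood adjusted p = 0.185). The interval of the fold, 0.987 to 1.27, was the narrowest of the 5 genes. Without EV library 2 the log2 fold change was 0.29 (edgeR quasi-likelihood adjusted p = 0.0504), and without EV library 1 it was 0.074 (adjusted p = 0.637).

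Exons of Kcnq1ot1 are overlapped on the other strand over 1119 bases, 121 of them by Kcnq1, a potassium channel gene that Kcnq1ot1 is known to silence in cis. The counts listed under Kcnq1 were 5, 3 and 5 in control and 3, 5 and 5 in EV libraries. Its exons are much shorter, and its mean level per kilobase of exon was 1.79 CPM in control and 2.01 CPM in EV libraries. Kcnq1ot1 had 20.6 CPM per kb in control and 23.2 CPM per kb in EV libraries. In the same domain, Cdkn1c, Phlda2 and Slc22a18 were at 0 in every library. Cd81, with 7 to 30 counts, and other fixed genes near them on chromosome 7 did have counts. Of 14 genes fixed as neighbours of Kcnq1ot1, H19 and Meg3, 9 were at the floor and 3 were tested. Of these 3, 1 was called, beside 22.1% of all tested genes. That one was Dlk1, a preadipocyte membrane protein whose gene lies 77665 bases from Meg3. Its counts were 112, 137 and 153 in control and 42, 72 and 67 in EV libraries, without overlap. It fell from 223 ± 16.1 to 115 ± 22.5 CPM (log2 fold change -0.95, SE 0.16, edgeR quasi-likelihood adjusted p = 6.3e-06). Cd81, a tetraspanin, had 39.9 ± 7.68 CPM in control and 25.5 ± 13.4 CPM in EV libraries (edgeR quasi-likelihood adjusted p = 0.14).

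Meg3 (Entrez 17263, chr12:109540996-109571729) itself had 1 count in control library 2, 1 in EV library 2 and 0 in the others. H19 (Entrez 14955, chr7:142575530-142578146) had 0 counts in all 6 libraries, and Igf2, the growth factor gene next to it, had 3 to 8. No fold change can be given for either RNA. A difference between the groups at levels under the floor of 4.51 to 5.90 CPM was not detectable with these library totals.

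Gas5 (Entrez 14455, chr1:161034601-161038539, plus strand) had the most counts of the listed snoRNA hosts. Its counts were 27, 26 and 35 in control and 21, 24 and 13 in EV libraries. All EV counts were below all control counts, with EV library 4 the lowest. After scaling, the levels were 49.8, 42.3 and 54.7 CPM in control and 44.4, 42.3 and 24.9 CPM in EV libraries, and the groups overlapped, since EV library 1 was above control library 2. The log2 fold change was -0.40 (SE 0.26, edgeR quasi-likelihood adjusted p = 0.272), with an interval of the fold from 0.527 to 1.09. Without EV library 4 it was -0.14 (edgeR quasi-likelihood adjusted p = 0.762).

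Snhg1 (Entrez 83673, chr19:8723487-8726326, plus strand) had 12, 17 and 22 counts in control and 4, 18 and 11 in EV libraries. EV library 1 was lowest and EV library 2 was above control libraries 1 and 2. The levels were 28.1 ± 6.11 and 20.4 ± 11.6 CPM (SD, n = 3), with a log2 fold change of -0.42 (SE 0.35, edgeR quasi-likelihood adjusted p = 0.384) and an interval from -1.12 to 0.27. This value depended on single EV libraries. It was -0.052 without EV library 1 and -0.88 without EV library 2 (edgeR quasi-likelihood adjusted p = 0.936 and 0.144). Slc3a2, an amino acid transporter subunit that starts 106 bases away on the other strand, had 279 ± 21.4 CPM in control and 288 ± 18.1 CPM in EV libraries, with a log2 fold change of 0.053 that turned negative when scaled by library totals alone (edgeR quasi-likelihood adjusted p = 0.789).

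Snhg12 (Entrez 100039864, chr4:132308678-132311024, plus strand) had 6, 14 and 6 counts in control and 6, 10 and 2 in EV libraries, 14.4 ± 7.29 and 11.4 ± 6.98 CPM (SD, n = 3). With no filter on low counts its log2 fold change was -0.24 (SE 0.45, edgeR quasi-likelihood adjusted p = 0.788), an error larger than the difference. Snhg9 (Entrez 73474, chr17:24719531-24719965, minus strand) had 1 count in control library 1, 2 in EV library 4 and 0 elsewhere. It overlaps 14 exon bases of Rps2, a ribosomal protein gene on the other strand with 72 to 196 counts, which fell from 301 ± 5.37 to 215 ± 56.3 CPM (log2 fold change -0.47, edgeR quasi-likelihood adjusted p = 0.011). Without EV library 1 the log2 fold change of Rps2 was -0.25 and did not pass (edgeR quasi-likelihood adjusted p = 0.216), nor did it with the DESeq2 Wald test (adjusted p = 0.0742) or with no filter on low counts in edgeR (adjusted p = 0.125). Bc1 (Entrez 100568459, chr7:144914470-144914623) had 2 counts in control library 2, 1 in control library 3, 1 in EV library 4 and 0 elsewhere.

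The snoRNAs annotated within exons of Gas5, Snhg1 and Snhg12 that the table lists were at 0 in every library. Snora78, which lies within Snhg9, was at the floor with 2 counts in control library 3, 1 in EV library 1 and 0 elsewhere. The mature snoRNAs are short and carry no poly(A) tail. Whether the counts of the hosts come from spliced or unspliced RNA cannot be told from counts per gene.

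The other snoRNA hosts give the setting for these values. Of 18 further noncoding hosts, 9 were at the floor and 6 were tested. Of the 6, 0 fell, 1 rose and 5 did not pass, beside 14.4% called lower and 7.68% higher over all tested genes. The median log2 fold change of the 6 was 0.31. Snhg15 was the one that rose, with 58, 54 and 56 counts in control and 79, 74 and 61 in EV libraries, without overlap. Its level was 94.1 ± 11.2 CPM in control and 138 ± 25.9 CPM in EV libraries (log2 fold change 0.55, SE 0.18, edgeR quasi-likelihood adjusted p = 0.019). This call was lost in 6 of 14 alternative fits, among them the DESeq2 Wald test (adjusted p = 0.0888) and the edgeR quasi-likelihood fits without control library 2 (adjusted p = 0.133), control library 3 (adjusted p = 0.0861) or EV library 1 (adjusted p = 0.0892). Dancr had 20.0 ± 8.71 CPM in control and 28.8 ± 10.5 CPM in EV libraries (edgeR quasi-likelihood adjusted p = 0.275), and Snhg17 had 100.1 ± 20.6 and 83.2 ± 2.73 CPM (adjusted p = 0.302).

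The protein-coding genes that hold snoRNAs in their introns, mostly ribosomal protein, translation factor and chaperone genes, had other values. All 25 fixed genes were tested, and 22 fell, 0 rose and 3 did not pass, with a median log2 fold change of -0.95, beside 14.4% called lower over all genes. Rps24, a protein of the small ribosomal subunit, fell from 485 ± 67.1 to 207 ± 43.9 CPM (log2 fold change -1.22, SE 0.13, edgeR quasi-likelihood adjusted p = 2.6e-10). Hspa8, a constitutive chaperone, fell from 408 ± 67.3 to 172 ± 35.7 CPM (log2 fold change -1.24, SE 0.14, edgeR quasi-likelihood adjusted p = 8e-10). Eif4a2, a translation initiation helicase, was one of the 3 that did not pass, with 227 ± 14.2 CPM in control and 277 ± 44.7 CPM in EV libraries (edgeR quasi-likelihood adjusted p = 0.101). The interval of Gas5 ended at -0.92 on the log2 scale and that of Snhg1 at -1.12, so that the median of the protein-coding hosts lay just outside the first and inside the second. The difference between noncoding and protein-coding hosts was not tested.

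**Figure D3:**
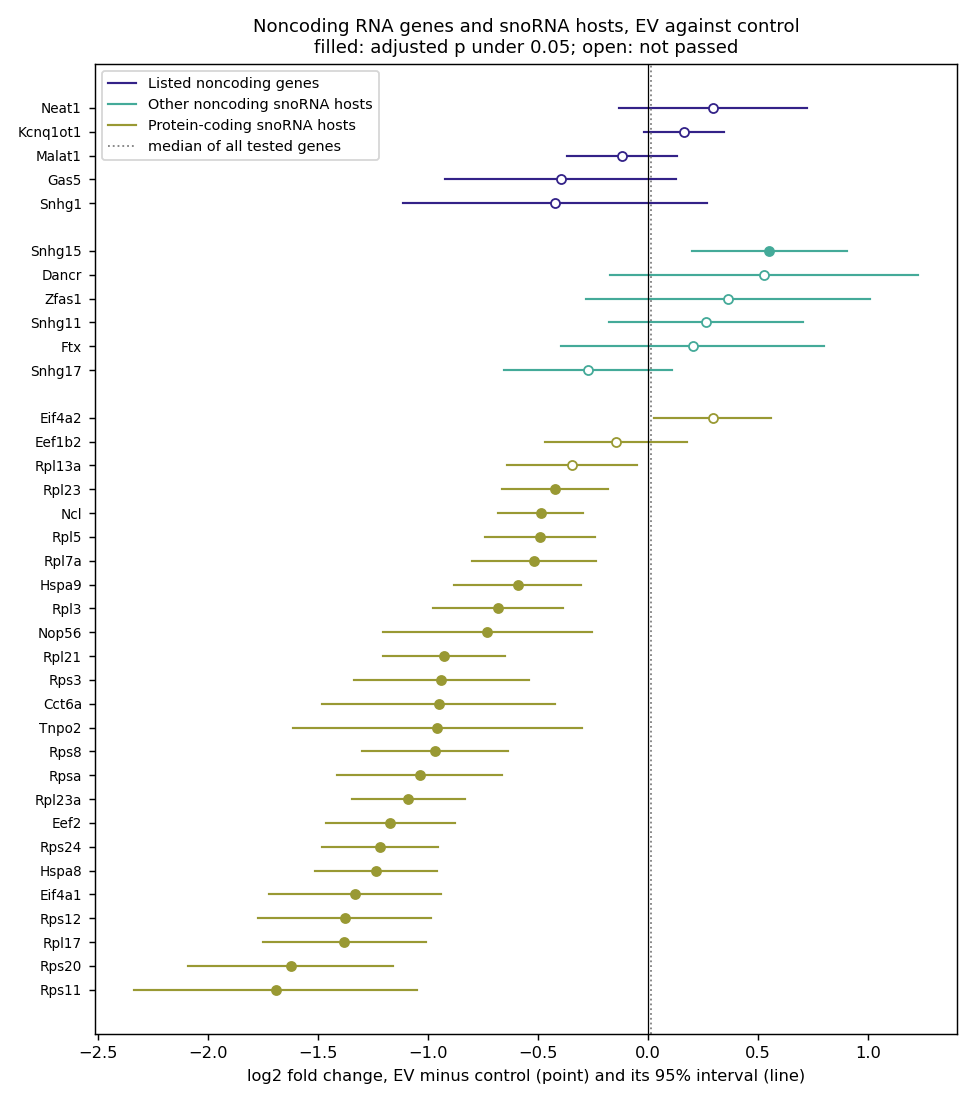
Log2 fold change, EV minus control (x axis), of the 5 tested genes, 6 other noncoding snoRNA hosts and 25 protein-coding snoRNA hosts, with 95% intervals as lines, filled points for adjusted p under 0.05 and a dotted line at the median of all tested genes. The intervals of all 5 listed genes contain 0, 1 other noncoding host is filled on the higher side, and 22 protein-coding hosts are filled on the lower side.

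Proteins that act on the host RNAs or their snoRNAs were counted too. Of 10 proteins of snoRNA-protein particles, 6 were tested. Of the 6, 3 fell and 0 rose, beside 14.4% called lower and 7.68% higher over all tested genes. The median log2 fold change of the 6 was -0.35. Nolc1, a chaperone of snoRNA particles, fell from 146 ± 14.7 to 80.6 ± 20.5 CPM (edgeR quasi-likelihood adjusted p = 0.000547), and Nop58, a core box C/D protein, from 95.8 ± 4.09 to 57.2 ± 6.89 CPM (adjusted p = 0.00726). The call of Nop58 was lost with the DESeq2 Wald test (adjusted p = 0.0678), and in edgeR with no filter on low counts (adjusted p = 0.0549) and without EV library 4 (adjusted p = 0.0516). Of 14 nonsense-mediated decay factors, 8 were tested and 0 were called by edgeR, beside 22.1% of all tested genes. The median log2 fold change of the 8 was -0.53. The 2 with the lowest adjusted p were Smg1, the kinase of the pathway, with 32.5 ± 9.83 CPM in control and 17.5 ± 3.53 CPM in EV libraries, and Smg5, with 28.3 ± 1.16 and 14.5 ± 6.74 CPM (edgeR quasi-likelihood adjusted p = 0.0514 and 0.0533).

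Of 21 other long noncoding RNAs, 18 were in the table, 8 at the floor and 3 tested. Of these 3, 0 were called by edgeR, beside 22.1% of all tested genes. Jpx, an activator of Xist, had 118 ± 19.5 CPM in control and 138 ± 6.49 CPM in EV libraries (edgeR quasi-likelihood adjusted p = 0.324). Firre, an X-linked nuclear RNA, had 35.1 ± 9.71 and 27.5 ± 2.82 CPM (adjusted p = 0.446). Of 8 small structured RNAs made without a poly(A) tail, the 4 in the table were at 0 in every library.

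The 10 genes together took 0.255, 0.240 and 0.221% of all counts in control libraries 1, 2 and 3, and 0.281, 0.208 and 0.228% in EV libraries 1, 2 and 4. The highest and the lowest share were both EV libraries, with the controls between them. The means were 0.239 ± 0.0171% and 0.239 ± 0.0374% (SD, n = 3; two-sided exact permutation test, p = 1, the smallest p that 3 against 3 can give being 0.1). Most of this sum was Kcnq1ot1. The other 9 genes took 0.0482 ± 0.00574% in control and 0.0414 ± 0.0036% in EV libraries (exact permutation test, p = 0.2).

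The directions of the 5 tested genes held in each of 14 alternative fits (13 for Snhg1, which one filter removed), although the sizes moved. The log2 fold change ranged from -0.26 to -0.0036 for Malat1, from 0.12 to 0.49 for Neat1, from 0.026 to 0.29 for Kcnq1ot1, from -0.53 to -0.081 for Gas5 and from -0.88 to -0.052 for Snhg1. No listed gene passed the adjusted threshold in any of them. At an unadjusted p under 0.05, between 0 and 2 of them did in each fit.

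**Figure D4:**
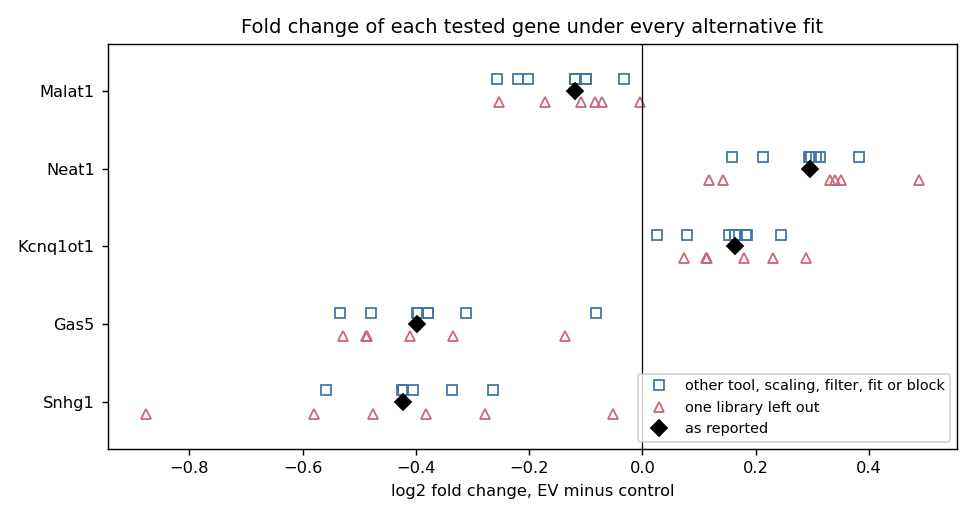
Log2 fold change, EV minus control (x axis), of the 5 tested genes as reported (black diamonds), under other tools, scalings, filters, fits or the replicate block (blue squares) and with 1 library left out (red triangles). Every point stays on its gene's side of 0, and Snhg1 has the widest spread, from -0.88 to -0.052.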

How the data were processed

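RNA-seq libraries of 3T3-L1 cells from 3 control and 3 EV plates were grouped by their labels. Per the paper's methods and the submitters' processing notes, the authors checked reads with FastQC, aligned them to mm10 (GRCm38) with STAR and summarised them per gene with Rsubread. The deposited values are raw counts, 1 column per library, from poly(A) libraries made with a stranded kit. Tool versions, annotation and the strand setting of the counting are not given in the sources used here.

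From these counts, genes were filtered with filterByExpr, scaled with TMM and tested with the quasi-likelihood test of edgeR 4.0.16 in R 4.3.3 (limma 3.58.1), with Benjamini-Hochberg adjustment over all tested genes and a threshold of 0.05. The study's own tool, DESeq2 (1.42.0 here), was an alternative. The steps were tested on simulated data. Symbols and sequences are from RefSeq and GENCODE vM21 on GRCm38, and 98.8% of genes matched the latter. Of the matched genes, 24.5% have an exon overlapped on the other strand. All listed genes are named. Of each comparison list, at most 4 genes are named, those with the lowest adjusted p in either direction, besides genes overlapping or next to a listed gene. Results for 2 of these genes are not reported here. The genes and lists were chosen with earlier results of these data known. The libraries are separately treated plates of 1 cell line, so p-values measure the spread between plates together with that between the EV or control preparations. No pair of libraries of a group agreed within sampling noise (chi-square per degree of freedom 1.20 to 1.95).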

Additional observations from a re-analysis of the deposited data

How the results depend on the processing

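Low deposited counts limit these results: Gas5, Snhg1 and Snhg12 rest on 2 to 35 counts per library, and 4 genes on at most 2. Over all genes 1121 were called. This became 512 with the DESeq2 Wald test and 632 with at least 10 counts in every library, and 489 (without control library 2) to 1215 (without control library 3) with 1 library left out. Without control library 1 it was 732. The difference of the summed share (EV minus control, in percentage points) was 0.000505. It reversed to -0.00681 without Kcnq1ot1, to -0.00842 without control library 3 and to -0.0203 without EV library 1, and ranged up to 0.0159 without EV library 2. Slc3a2, on the log2 scale, reversed to -0.086 with library totals, -0.031 with at least 10 counts and -0.042 without control library 3, and reached 0.14 without EV library 4. The long noncoding RNA Norad (log2 fold change 0.068) reversed to -0.069 with library totals, -0.015 with at least 10 counts, -0.16 without control library 1 and -0.0084 without EV library 1, and reached 0.25 without control library 2. The speckle protein gene Srsf1 (0.12) reversed to -0.018 with library totals, -0.077 with the replicate block and -0.043 without EV library 4, and reached 0.36 without EV library 1. The cause was not tested. The quasi-likelihood fit in its older form was chosen after seeing the data and gave 1107 genes.

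The groups share replicate numbers 1 and 2, and the labels do not say whether the number stands for a pairing. Deviations of same-numbered libraries correlated by 0.0714 and 0.0634, and those of the other pairs by -0.101 to 0.0552. With few counts per gene, correlations this small can neither show nor exclude a pairing. With the number as a block, control library 3 and EV library 4 each stand alone in their block. The fold changes of that fit therefore rest on libraries 1 and 2 of each group. In it 1119 genes were called and no listed gene, and Gas5 moved from -0.40 to -0.081 (edgeR quasi-likelihood adjusted p = 0.883). Between the alternatives, 17 to 23 protein-coding snoRNA hosts, 0 to 1 other noncoding hosts, 1 to 6 speckle proteins, 1 to 3 paraspeckle proteins, 1 to 3 snoRNA-particle proteins and 0 to 3 decay factors were called lower or higher. The calls over all genes moved between 489 and 1215 in the same alternatives.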
